A study of Rattus norvegicus with 10 samples.

Results

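The imprinted growth-control genes examined here were Cdkn1c, Nnat, Peg3, Dlk1, Grb10, Ndn and Snrpn, 7 genes that are each expressed mainly from the copy of one parent. Their members were all probe sets of the array that the annotation pairs with exactly 1 of these symbols. This gave 8 of 31042 probe sets, for 6 of the 7 genes, with 3 probe sets for Grb10 and 1 for each of the others. No probe set carried Peg3 alone, so Peg3 was not measured. A further 2 probe sets carried Snrpn together with Snurf and were left out. Affymetrix rat arrays had been used to measure hippocampal mRNA in a C-group of 5 rats given solid chow and a P-group of 5 given a powdered diet. All were male Wistar rats with no genetic change named, 4 weeks old, which differed in the form of the feed for 8 days after both groups had taken powder. The comparison asks whether chewing during weaning is accompanied by a difference in these genes.

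Genomic imprinting silences one parental copy of a gene through DNA methylation of CpG sites that is laid down in the germ line. Many imprinted genes control growth, and in mouse the copies expressed from the father tend to promote it while those expressed from the mother tend to restrain it. In mouse, Nnat, Peg3, Dlk1, Ndn and Snrpn are expressed from the paternal copy and Cdkn1c from the maternal copy, while Grb10 is maternal in most tissues and paternal in neurons. Several of these genes are strongly expressed in embryonic and early postnatal tissue and decline with age.

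Promoter sequences in the RefSeq annotation of the rat assembly GRCr8 were matched by symbol for Peg3, Dlk1, Grb10, Ndn and Snrpn, 5 of the 7 genes. Cdkn1c and Nnat had none in the table. The 250 bases before the start of Grb10 and of Ndn are shown because these are the matched genes whose mRNA varied between rats, and capitals mark each CG, the site at which imprints are methylated. Grb10 lies on the minus strand (chr14:90816388-90816637) and Ndn on the plus strand (chr1:125260809-125261058).
Grb10: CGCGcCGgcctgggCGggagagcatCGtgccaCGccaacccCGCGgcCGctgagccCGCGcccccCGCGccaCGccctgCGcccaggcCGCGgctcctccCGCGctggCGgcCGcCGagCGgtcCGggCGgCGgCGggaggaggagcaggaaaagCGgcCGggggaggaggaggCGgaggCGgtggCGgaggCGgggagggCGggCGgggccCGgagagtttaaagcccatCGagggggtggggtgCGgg
Ndn: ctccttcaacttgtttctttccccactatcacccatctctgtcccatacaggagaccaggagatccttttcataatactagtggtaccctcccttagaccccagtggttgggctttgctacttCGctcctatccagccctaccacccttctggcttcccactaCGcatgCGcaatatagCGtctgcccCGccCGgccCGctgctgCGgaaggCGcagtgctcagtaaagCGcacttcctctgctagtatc
Grb10 had 38 CG dinucleotides in this window, a number reached by 1.69% of all 33469 promoters, and Ndn had 10, reached by 35.9%. The windows of Dlk1, Peg3 and Snrpn held 41, 11 and 7, against a median of 5 over all promoters. Methylation was not measured, so these counts describe the sequences only.

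The values are log2 expression from qFARMS, a factor model that flattens a probe set to a near constant unless its probes vary together. Only 2904 probe sets (9.36%) had a standard deviation (SD) above 0.01 over the 10 arrays, and 4 of the 8 probe sets of the imprinted genes were among them. These were the single probe sets of Cdkn1c (1372299_at), Nnat (1369999_a_at) and Ndn (1371947_at) and 1 of the 3 of Grb10 (1371517_at). Nnat and Ndn averaged 11.16 and 10.95 over the 10 arrays, above 98.6% and 98.2% of all probe sets. Cdkn1c averaged 8.88 and Grb10 7.78, at the 85.7th and 67.7th percentiles. Levels of different probe sets are not comparable as amounts of mRNA, because probes differ in their affinity.

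**Figure D1:**
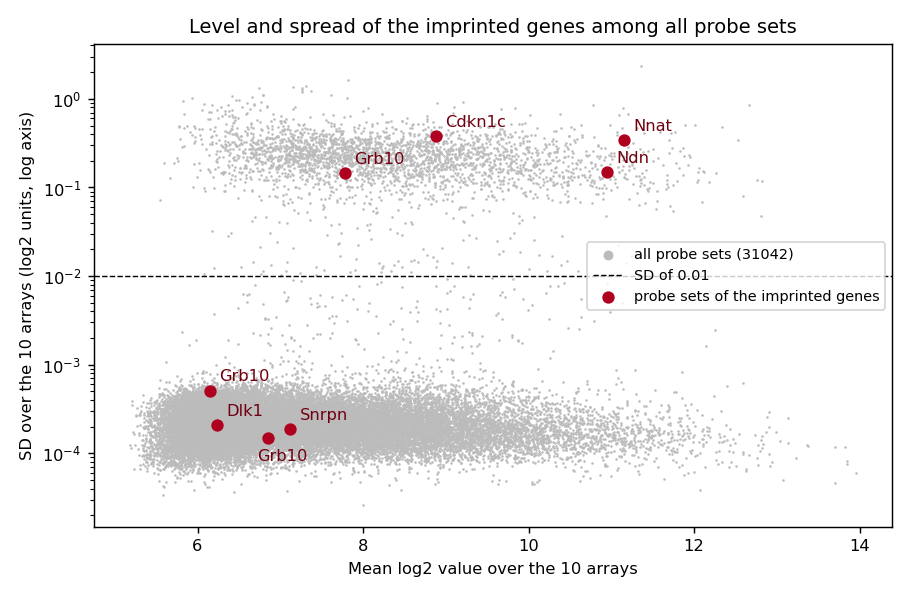
Mean log2 value over the 10 arrays (horizontal axis) and SD over the 10 arrays in log2 units (vertical log axis) for all 31042 probe sets in grey and the 8 probe sets of the imprinted genes in red. Cdkn1c, Nnat, Ndn and 1 of the 3 probe sets of Grb10 lie above the dashed line at an SD of 0.01.

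The remaining 4 probe sets carried almost no information on differences between rats. Dlk1, which encodes a transmembrane protein with epidermal growth factor-like repeats, stood at 6.23 to 6.24 in all 10 rats. Snrpn, which encodes a core protein of the spliceosome, stood at 7.12, and the other probe sets of Grb10 stood at 6.86 and 6.15. The largest difference between the groups among these 4 was 0.000527 log2 units. A value this flat does not show that the genes were alike in the groups, because the model sets such probe sets to a constant.

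Cdkn1c, which encodes the cyclin-dependent kinase inhibitor p57 and halts cells in the cell cycle, gave the largest difference of the members. Its log2 values were 9.24, 9.21, 8.89, 8.77 and 9.35 in rats C1 to C5 of the C-group, against 8.40, 8.77, 9.31, 8.42 and 8.44 in rats P1 to P5 of the P-group. P3 lay within the range of the C-group, whereas the other 4 rats of the P-group lay below every rat of the C-group, P2 only just. Each C-group rat was also set against each P-group rat, and it had the higher value in 21 of these 25 pairs. The group means were 9.09 ± 0.25 in the C-group and 8.67 ± 0.39 in the P-group (SD, n = 5 rats each), and they differed by 0.42 log2 units (standard error 0.20).

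Rank products, the method named by the study, called Cdkn1c higher in the C-group at a false discovery rate (FDR) of 0.00269. The call threshold was 0.05. In the same direction it called 1.99% of all probe sets and 21.2% of those with an SD above 0.01. limma, which weighs the difference against the spread between rats, did not call Cdkn1c (adjusted p = 0.927 over all probe sets). It called no probe set on the array. Omitting any one rat left Cdkn1c called, with differences from 0.36 to 0.58, the largest without P3. When only the 2904 varying probe sets were ranked, Cdkn1c was no longer called (FDR 0.536), and 4 probe sets in all were called.

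**Figure D2:**
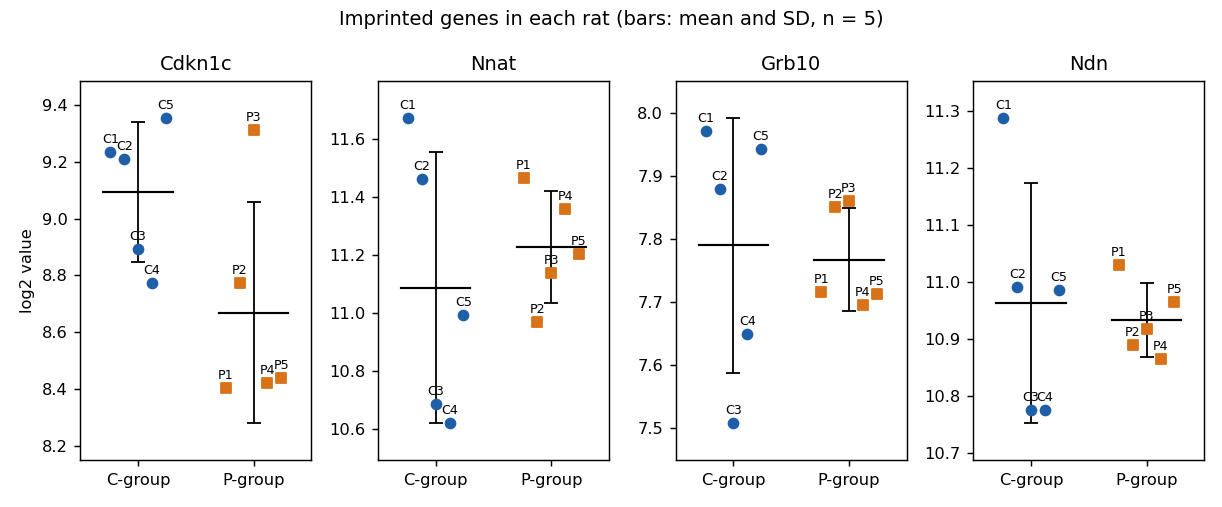
Log2 values of the 4 varying probe sets in each rat of the C-group (blue circles, left) and P-group (orange squares, right), with black bars for the mean and SD of 5 rats. For Cdkn1c, P3 at 9.31 stands among the rats of the C-group, and for Nnat, Grb10 and Ndn the C-group spans a wider range than the P-group.

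Nnat, which encodes neuronatin, a small membrane protein of the endoplasmic reticulum in neurons, was called in the other direction. It stood at 11.67, 11.46, 10.69, 10.62 and 10.99 in C1 to C5, against 11.47, 10.97, 11.14, 11.36 and 11.20 in P1 to P5. C1 had the highest and C4 the lowest value of all 10 rats, so the C-group enclosed the P-group at both ends. The means were 11.09 ± 0.47 in the C-group and 11.23 ± 0.19 in the P-group (SD, n = 5 each), with a difference of -0.14 (standard error 0.22).

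Rank products called Nnat lower in the C-group at an FDR of 0.0434, a direction in which it called 0.383% of all probe sets and 4.1% of the varying ones. It did not pass limma (adjusted p = 0.936). The call held without C1 or without C2, where the difference was -0.29 and -0.23, and was lost without any of the other 8 rats. Without C4, C3 or P1 the difference was -0.02, -0.04 and -0.08, with FDRs of 0.204, 0.145 and 0.116.

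Grb10 encodes an adaptor protein that binds the insulin and insulin-like growth factor receptors and dampens their signaling. Its values were 7.97, 7.88, 7.51, 7.65 and 7.94 in C1 to C5, against 7.72, 7.85, 7.86, 7.70 and 7.71 in P1 to P5. The C-group held both the highest and the lowest rats. Its difference was 0.02 with a standard error of 0.09, and it was called by neither method (FDR 0.344, adjusted p = 0.972 from limma). Without C1 or without C5 its sign turned, at -0.02 in each case.

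Ndn encodes necdin, a protein of the MAGE family that restrains cell division and favors the survival of neurons. It stood at 11.29, 10.99, 10.77, 10.77 and 10.99 in C1 to C5, against 11.03, 10.89, 10.92, 10.86 and 10.96 in P1 to P5. Apart from C1, which was the highest rat, the values lay within 10.77 to 11.03. The difference was 0.03 with a standard error of 0.10, with no call by either method (FDR 0.765, adjusted p = 0.965 from limma), and it was -0.05 without C1.

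In all, 1 of the 4 varying probe sets was called higher and 1 lower by rank products, and either call was made for 2.37% of all probe sets and 25.3% of the varying ones. limma called 0 of the 8, and 0 of the 8 had an unadjusted p under 0.05, against 2.95% of all probe sets. The median difference of the 4 was 0.03 log2 units, against 0.07 over all 2904 varying probe sets. C1 also had the highest median of the varying probe sets, 8.31, while the other 9 arrays had medians from 8.11 to 8.27.

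Ttr, a transport protein gene of the choroid plexus, and Col1a2, a collagen gene of meningeal fibroblasts, were set beside the members. Ttr stood at 13.59, 13.49, 10.35, 9.09 and 13.60 in C1 to C5, against 7.40, 9.29, 13.58, 10.18 and 12.99 in P1 to P5. It thus split into 5 arrays from 12.99 to 13.60 and 5 from 7.40 to 10.35, with rats of both groups in each, and no correlation over all arrays is given for it. In bulk tissue, fewer cells of a type and less RNA per cell cannot be told apart.

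The 4 rats with the highest Ttr, C1, C2, C5 and P3, were also the 4 with the highest Cdkn1c and the 4 with the highest Grb10. P5 departed from this order. Its Ttr was 12.99, yet its Cdkn1c was 8.44 and its Grb10 7.71. For Grb10, P2 departed as well, with a Ttr of 9.29 but a Grb10 of 7.85, just below the 7.86 of P3. Of the 5 rats with the highest Ttr, 4 were among the 5 highest for Cdkn1c, Grb10 and Ndn, and 3 for Nnat. P1, with the lowest Ttr of all rats, had a higher Nnat (11.47) than C5 with the highest Ttr (10.99). Its Ndn was also higher, at 11.03 against 10.99 in C5.

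Col1a2 stood at 8.99, 9.08, 8.67, 8.87 and 9.11 in C1 to C5, against 8.72, 8.86, 9.13, 8.46 and 8.14 in P1 to P5. Its 4 highest rats were again C1, C2, C5 and P3, and its lowest was P5. Over the 10 arrays, Cdkn1c correlated with Col1a2, with Pearson's r of 0.85 (permutation p = 0.00092, adjusted p = 0.00368) and Spearman's rho of 0.83 (permutation p = 0.00519, adjusted p = 0.0208). The p-values were two-sided and adjusted over the 4 varying probe sets of the members. Members and markers were chosen with earlier results of these data known, and the adjustment does not cover that choice. The share of all varying probe sets that correlated as strongly with Col1a2 is not given here. Without the 2 arrays farthest from the median of Col1a2, r was again 0.85, and it lay between 0.82 and 0.90 when any one rat was omitted. Without C1, C2, C5 or P3, rho was 0.78 (exact permutation p = 0.0172, adjusted p = 0.0689). With the other probe set of Col1a2, r was 0.82 (permutation p = 0.00508, adjusted p = 0.0203) but rho was 0.66 (permutation p = 0.0437, adjusted p = 0.0873).

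The values of Cdkn1c were themselves split, since P1, P4 and P5 lay below the other 7 rats by a gap of 0.350 of the range. Within these 7 rats, r was 0.83 (exact permutation p = 0.0327, adjusted p = 0.129). Grb10 had r = 0.60 with Col1a2 (permutation p = 0.0646, adjusted p = 0.129) and rho = 0.70 (permutation p = 0.031, adjusted p = 0.062). Its r was 0.81 without the 2 farthest arrays. Nnat and Ndn had r = 0.02 and r = 0.23 (permutation p = 0.956 and 0.501, adjusted p = 0.956 and 0.668), with rho of 0.01 and 0.30 (permutation p = 1 and 0.405, adjusted p = 1 and 0.540). Of the 5 rats with the highest Col1a2, 4 were among the 5 highest for Cdkn1c and Grb10, 3 for Ndn and 2 for Nnat.

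**Figure D3:**
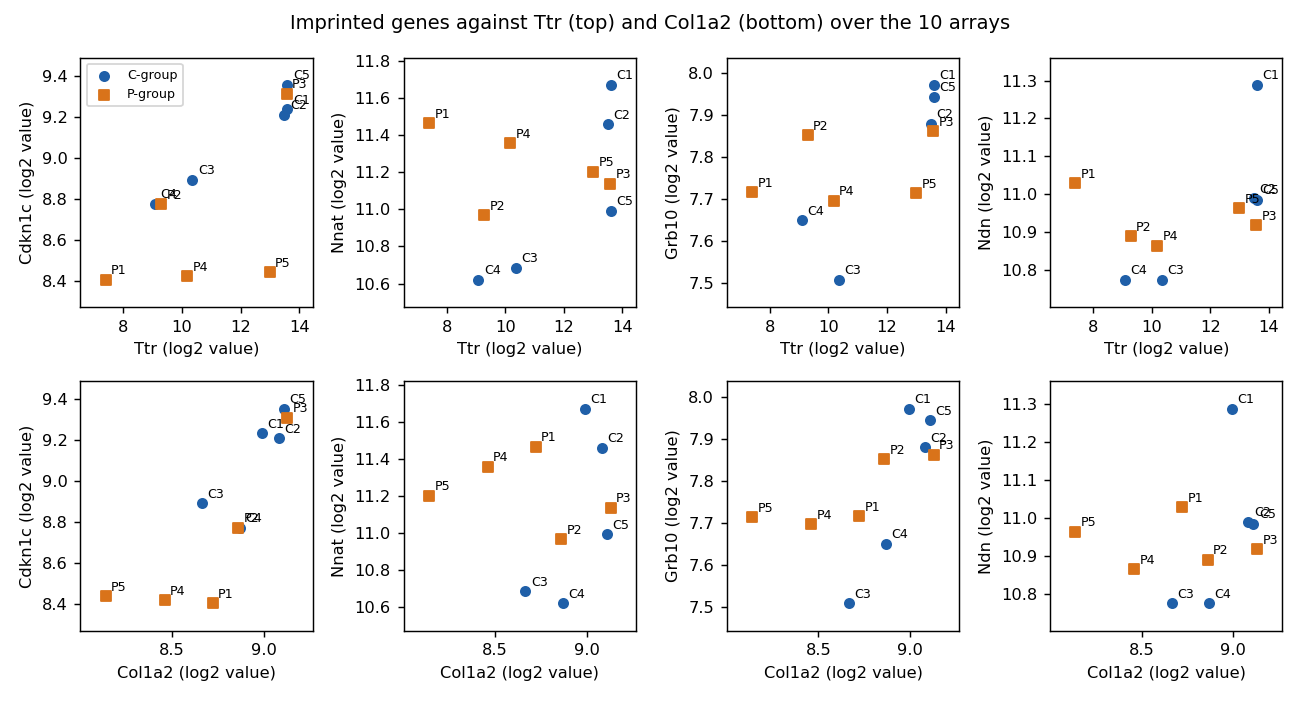
Log2 values of Cdkn1c, Nnat, Grb10 and Ndn (vertical axes) against the log2 values of Ttr (top row) and Col1a2 (bottom row) in the 10 rats, with blue circles for the C-group and orange squares for the P-group. P5 has a high Ttr of 12.99 with a low Cdkn1c of 8.44, but the lowest Col1a2, 8.14.

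The lists of cell type markers were counted by gene, where any probe set of a gene counts. Of 14 listed choroid plexus markers 12 were measured, and all 12 had a probe set that varied and was called higher in the C-group. Over the probe set of each gene with the highest mean this was 11 of 12, as that of Prlr was flat. Their summed level ran from 10.43 to 14.02 log2 units in the C-group and from 9.98 to 13.89 in the P-group. Of 12 meningeal fibroblast markers, all measured, 7 varied and 6 were called higher, with summed levels from 11.28 to 11.77 in the C-group and from 11.14 to 11.73 in the P-group. Markers of other cells were called too. Of 3 astrocyte markers 2 were called higher, Aqp4 and Slc1a3, with differences of 0.32 and 0.27, each at a probe set other than the one with the highest mean. The remaining astrocyte marker, Gfap, was not called and differed by -0.15 at its probe set with the highest mean. Of 4 interneuron markers 1 was called higher, Gad2 with a difference of 0.21, and of 6 neuronal markers 1 was called lower, Neurod6 with a difference of -0.25. Npy of the interneuron list differed by -0.24 and Syt1 of the neuronal list by 0.13, and neither was called. Among all genes, 2.5% were called higher and 0.577% lower. Among genes with a varying probe set the shares were 19.9% and 4.58%. None of the 7 markers of endothelium and pericytes varied. The part of these cell types in the difference of Cdkn1c was not tested. All 6 neuronal markers and both markers of dentate granule cells were measured, but the values come without detection calls and levels of different probe sets cannot be compared, so the label of the tissue was not tested. The 4 measured hypothalamic neuropeptide genes were among the flattened probe sets.

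Among the members, Nnat and Ndn varied together over the 10 rats. Their Pearson's r was 0.82 (permutation p = 0.00154, adjusted p = 0.0077) and rho 0.84 (permutation p = 0.00361, adjusted p = 0.018). With any single rat omitted and no split into clusters, an alternative added after the data were seen, r lay between 0.78 and 0.90, and it was 0.79 without C1, the highest rat for both. It was 0.70 without C1 and C4, the 2 rats farthest from the median of Nnat. When C1 was omitted, C3 and C4, the lowest for both genes, stood apart as a cluster, and r was 0.36 over the other 7 rats, so that the relation rested on C1, C3 and C4 together. The 5 genes most alike to Nnat reached r of 0.93 to 0.98 and did not include Ndn. Those most alike to Ndn reached 0.94 to 0.97 and did not include Nnat. Grb10 and Ndn had r = 0.72 (permutation p = 0.0162, adjusted p = 0.0405) and rho = 0.79 (permutation p = 0.00837, adjusted p = 0.0209), with r from 0.65 to 0.77 when any single rat was omitted, 0.46 without the 2 rats farthest from the median of Grb10 and 0.12 over the same 7 rats. Nnat and Grb10 had r = 0.54 (permutation p = 0.107, adjusted p = 0.136) and rho = 0.54 (permutation p = 0.115, adjusted p = 0.192). Within the 7 rats with higher Cdkn1c, Cdkn1c had r = 0.64 with Nnat and 0.62 with Ndn (exact permutation p = 0.136 and 0.124, adjusted p = 0.136 for both), and rho of 0.57 and 0.61 (exact permutation p = 0.2 and 0.167, adjusted p = 0.2 for both). With no split into clusters and any single rat omitted, r lay between -0.20 and 0.17 for Cdkn1c with Nnat. For Cdkn1c with Ndn it lay between 0.07 and 0.44. The pairs tested were 5. The pair of Cdkn1c and Grb10 had no cluster of 6 rats or more and was not tested. With no split and any single rat omitted, its r lay between 0.55 and 0.84.

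The genes whose pattern over the 10 arrays was most like that of each member were ranked by Pearson's r among the varying probe sets with 1 symbol, as a description. For Cdkn1c these were Mgp, a matrix protein gene that prevents calcification (r = 0.98), Anxa2, a calcium-dependent membrane-binding protein gene (0.95), Sfrp1, a secreted inhibitor of Wnt signaling (0.93), Sned1 (0.92) and Crip2 (0.92). All of these were called higher in the C-group by rank products, with differences from 0.21 to 0.34, against 21.2% of the varying probe sets. They were picked for their likeness to Cdkn1c, itself called higher, so their calls are no separate evidence. For Nnat they were the nuclear receptor gene Nr2f2 (r = 0.98), the teneurin gene Tenm4 (0.97), the guanine deaminase gene Gda (0.95), Plagl1 (0.95) and Tac1, the precursor gene of substance P (0.93). Of these, Nr2f2 and Plagl1 were called lower in the C-group, as Nnat was, against 4.1% of the varying probe sets. They too were picked for their likeness to a called gene, so their calls are no separate evidence. Plagl1, a zinc finger transcription factor gene, is itself imprinted.

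The genes nearest to Grb10 in pattern were Igsf1 (r = 0.94), Fstl1 (0.93), Rgs2 (0.91), Meis2 (0.91) and Arhgap6 (0.90), none of them called. For Ndn they were the glycolytic enzyme gene Tpi1 (r = 0.97), Nrsn2 (0.96), the serotonin receptor gene Htr2c (0.95), Plcxd3 (0.95) and 6330403K07Rikl (0.94). Only Htr2c among these was called, higher in the C-group. No gene stood among the 5 most alike of more than 1 member. The 3 rats with the highest Nnat, C1, P1 and C2, had the lowest values of one dentate granule cell marker, Prox1, and the highest of the other, Calb1. Prox1 stood at 9.13, 9.37 and 9.38 in C1, P1 and C2, and at 9.50 to 9.73 in the other 7 rats. Calb1 stood at 10.22, 9.98 and 10.06 in C1, P1 and C2, and at 9.58 to 9.94 in the others. The 2 markers thus ran in opposite directions, and their part in the values of Nnat was not tested.

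A list of 51 other imprinted genes was examined next, of which 38 had a probe set with 1 symbol. Only 9 of these genes, with 10 probe sets, varied over the arrays, and rank products put 3 higher and 1 lower in chow-fed rats, leaving 34 uncalled. Among all genes it called 2.5% higher and 0.577% lower, and among the 1789 genes with a varying probe set 19.9% and 4.58%. limma called 0 of the 38 (2 probe sets, of the flattened kind, had an unadjusted p under 0.05). The median difference of the 10 varying probe sets was 0.13 log2 units, 8 positive and 2 negative.

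Igf2 is the growth factor gene expressed from the paternal copy in most tissues and known to be expressed in choroid plexus and meninges. Its varying probe set had the largest difference, while its other probe sets, at 6.68, 6.44 and 5.99, were flat. The varying probe set stood at 10.64, 10.26, 9.46, 9.52 and 10.53 in C1 to C5, against 9.58, 9.79, 10.57, 9.32 and 9.49 in P1 to P5. The high rats were once more C1, C2, C5 and P3, and P5 was low, as for Cdkn1c. The difference was 0.33 with a standard error of 0.32 (FDR 0.0175, adjusted p = 0.927 from limma), and it was not called without C1, C2, C5 or P4. Without C1 the difference was 0.19 and without P3 it was 0.54.

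Meg3, a noncoding RNA gene expressed from the maternal copy and a close neighbor of Dlk1, differed by 0.19 with a standard error of 0.15 at 1 of its 2 probe sets (FDR 0.0483). Without P2, its lowest rat, the difference was 0.08 and was not called. The call was also lost without C1, C2, C4, C5 or P4. The other probe set of Meg3, at 11.81, was flat. Dcn, which encodes the matrix proteoglycan decorin and is imprinted in mouse placenta, differed by 0.13 with a standard error of 0.15 (FDR 0.0472). It is also on the meningeal list, and its difference was 0.05 without P5 and 0.06 without C2, with no call in either case. Without C1, C4, C5 or P2 it was not called either. Plagl1 was called lower (FDR 0.0464) with a difference of only -0.06 and a standard error of 0.35, and its values ran from 6.28 to 7.80 in the C-group and from 6.71 to 7.46 in the P-group. Its sign turned without C3 (0.13), C4 (0.11) or P1 (0.04), and it was not called there or without P2, P3, P4 or P5. None of Igf2, Meg3, Dcn and Plagl1 was called in all sets that omitted one rat.

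**Figure D4:**
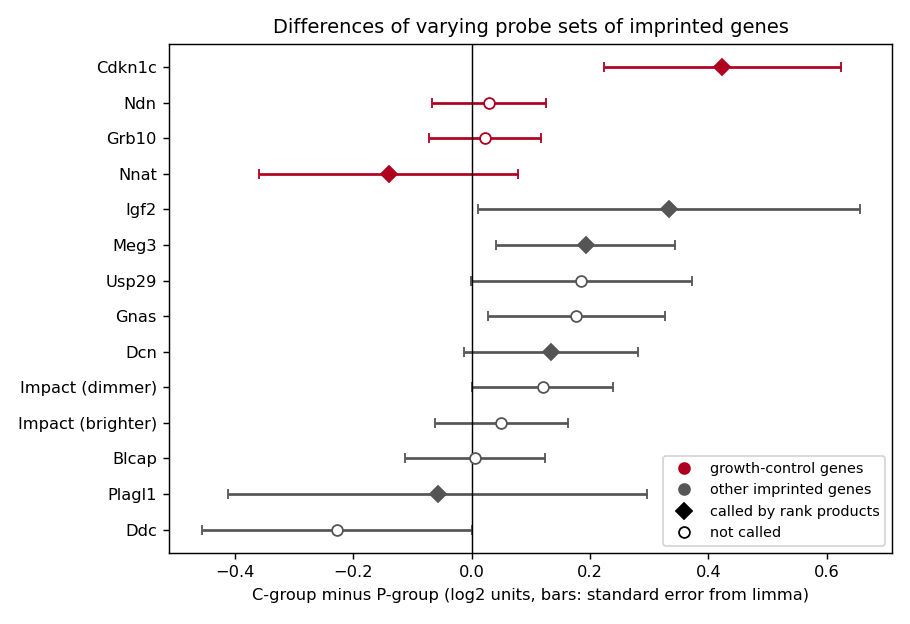
C-group minus P-group differences in log2 units, with standard errors from limma as bars, for the varying probe sets of the growth-control genes (red) and of other imprinted genes (grey), where filled diamonds were called by rank products. Cdkn1c at 0.42 and Igf2 at 0.33 lie farthest to the right, and called genes such as Plagl1 and Nnat have bars that cross 0.

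Imprinted genes lie in clusters, and the order of genes in RefSeq was used to find the neighbors of the members. Beside Nnat lies Blcap, within whose transcribed region Nnat sits in mouse. The varying probe set of Blcap differed by 0.01 with a standard error of 0.12. Near Grb10 lies Ddc, which encodes the decarboxylase that makes dopamine and serotonin and differed by -0.23 with a standard error of 0.23. This difference came from P2 at 8.42, and it was -0.01 without that rat. Of the neighbors of Cdkn1c on chromosome 1, Ascl2, Tspan32, Cd81, Kcnq1, Slc22a18, Phlda2 and Osbpl5 were measured and none varied. Beside Ndn only Peg12 was measured, and it was flat at 5.93.

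Although Peg3 was not measured, its neighbors Usp29 and Apeg3 were. Apeg3, a noncoding RNA transcribed antisense to Peg3, was chosen for mention after its values were seen. Usp29, a deubiquitinase gene, stood at 8.35, 7.98, 7.51, 7.64 and 7.81 in C1 to C5, against 8.00, 7.77, 7.83, 7.30 and 7.47 in P1 to P5. The difference was 0.19 with a standard error of 0.19, not called (FDR 0.0763). C1, P1 and C2 were highest, with the groups overlapping.

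Of the 4 probe sets of Apeg3, 3 varied, with differences of 0.24, 0.23 and 0.19 and standard errors of 0.24, 0.24 and 0.26. The first 2 were called higher (FDR 0.0278 and 0.033) and neither passed limma. The brightest varying one stood at 10.78, 10.44, 9.81, 9.97 and 9.77 in C1 to C5, against 10.41, 10.07, 9.93, 9.58 and 9.59 in P1 to P5. Here too C1, C2 and P1 were the 3 highest rats. Array probes are made for 1 strand, but a value for Apeg3 does not stand in for Peg3.

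**Figure D5:**
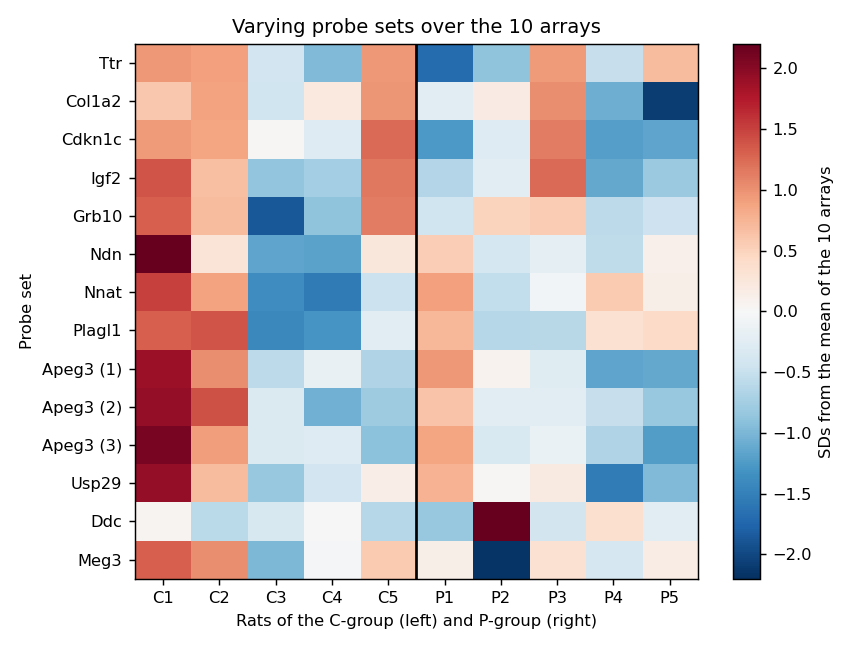
Varying probe sets of imprinted genes and of Ttr, Col1a2 and Apeg3, each row in SDs from the mean of the 10 arrays, with C1 to C5 left and P1 to P5 right of the line. Cdkn1c and Igf2 are high in C1, C2 and C5 and in P3, Nnat and Plagl1 in C1, C2 and P1, and Ddc is high and Meg3 low in P2.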

How the data were processed

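Total RNA of the hippocampus of 5 rats of the C-group and 5 of the P-group was labeled and hybridized by the authors to Affymetrix rat arrays, 1 array for each rat, and the deposited values are log2 expression from qFARMS with quantile normalization. The scanner files were not used here. Of 31099 probe sets, 57 controls were left out, and symbols came from the platform annotation. Arrays have no read depth, and their number limits the precision. Rank products (25 differences between groups, 100 permutations within arrays, FDR threshold of 0.05) was run in Python 3.11.15. limma 3.58.1 was run in R 4.3.3 with Benjamini-Hochberg adjustment, and both methods covered all 31042 probe sets. Both were also run on simulated data in which each probe set was drawn independently. That run does not show how they behave where probe sets vary together. "Called" refers to rank products. Correlations used 100000 permutations, or all of them below 10 rats. Separate clusters were assumed when neighboring sorted values left a gap wider than the range divided by 3 with 2 arrays or more on each side. The text names all members, varying genes of the list of other imprinted genes and the 5 most alike genes. Members, lists and markers were chosen with earlier results of these data known. The table held 0 columns of other samples.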

Additional observations from a re-analysis of the deposited data

Results flagged for a closer look

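Over 28 sets of 5 rats, for the varying probe sets of the members and of the other imprinted genes, 2 held a rat far from the other 4, and chance alone gives about 1 in 20. Meg3 was 9.77 in P2, against 10.23 to 10.40 in the 4 other P-group rats. The brighter varying probe set of Impact, which encodes a regulator of translation, was 9.18 in C1, against 8.68 to 8.80 in the 4 other C-group rats.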

How the results depend on the processing

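As reported, rank products called 2 probe sets of the members. With only varying probe sets ranked it called 0, without the dimmer probe sets 1 (Cdkn1c), and 1 to 2 when one rat was omitted, Cdkn1c each time. Nnat lost its call in 8 of these 10 sets and without the dimmer probe sets (FDR 0.0652). Of the other imprinted genes 4 were called as reported, 0 with only varying probe sets ranked, 1 without the dimmer ones (Igf2) and 1 to 6 with one rat omitted. Fewer probe sets were ranked with only varying ones (2904) and without the dimmer ones (15521) than as reported (31042). All 735 probe sets called as reported were varying ones. The cause of the changes in calls was not tested. With one rat omitted, the median difference of the 4 varying probe sets ran from -0.04 to 0.09. Grb10 ran from -0.0222 (without C1) to 0.0937 (without C3) and was also negative, -0.02, without C5. Ndn ran from -0.0518 (without C1) to 0.0768. limma called 0 members in every setting run. By Pearson's r, 1 member (Cdkn1c) correlated with Col1a2 as reported and in each set with one rat omitted (1 to 1). Its Spearman's rho did not pass 0.05 without C1, C2, C5 or P3 (adjusted permutation p = 0.0689). The count of members became 2 without the 2 arrays farthest from the median of Col1a2 (with Grb10). It became 0 when clusters were also looked for in the member, an alternative added after the data were seen. The study states no pairing of the rats. The deviations of same-numbered rats correlated at 0.28, -0.01, -0.39, 0.48 and 0.45 for replicates 1 to 5. For replicates 1 and 4, each rat was the best match of the other. These mixed values do not settle whether replicate numbers pair the rats. With the replicate block, 2 members were called again (Cdkn1c at FDR 0.00087 and Nnat at 0.0152) and 6 other imprinted genes. Total calls became 912 higher and 337 lower with the block, against 617 and 119 without. The alternatives for Ttr were not run, because its arrays fell into 2 clusters of 5.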

Other observations

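P2 stood apart in another imprinted gene. Ddc, which the pineal gland uses to make serotonin, was 8.42 in P2, against 7.20 to 7.46 in the C-group and 7.13 to 7.57 in P1, P3, P4 and P5. The pineal genes Pde6g, Pdc and Asmt stood at 10.87, 8.82 and 8.13 in P2, and all 9 other rats were at or below 7.15, 5.67 and 6.02. The members did not stand out in this rat, with Cdkn1c at 8.77, Nnat at 10.97, Grb10 at 7.85 and Ndn at 10.89. The part of pineal tissue in the value of Ddc was not tested.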
